A study of Mus musculus with 6 samples.

Results

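The genes described are 10 regulators of mitochondrial biogenesis and of energy use, taken by name from the 23337 genes of a count table of sorted mouse cardiomyocytes (CMs). They are the coactivators Ppargc1a and Ppargc1b, the estrogen-related receptors Esrra, Esrrb and Esrrg, the peroxisome proliferator-activated receptors Ppara and Ppard, and the nuclear factors Nrf1, Gabpa and Tfam. All 10 were found in the table, and all 10 passed the filter on low counts. The study raised SRF, serum response factor, a transcription factor of actin and sarcomere genes, in maturing CMs, and the comparison asks how the level of each regulator differed between CMs with added SRF and control CMs.

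Wildtype mice were injected at postnatal day 1 with an adeno-associated virus of serotype 9 (AAV9), at 5e8 viral genomes per gram. The SRF-OE group carried AAV9-cTNT-SRF-2A-GFP, and the control group, GFP, carried AAV9-cTNT-GFP. Both groups thus share the virus, the GFP and the cardiac troponin T promoter, which drives expression in CMs, and both were sorted by GFP at postnatal day 14, so the libraries were made from cells sorted as transduced. The design names 3 biological replicates in each group, without saying how many animals went into a library. The p-values set the difference between the groups against the spread between these libraries.

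In the heart, PGC-1 coactivators have no DNA-binding domain of their own and act by docking on nuclear receptors and other factors that sit on the promoters of mitochondrial genes. The estrogen-related receptors (ERRs) and PPARs are nuclear receptors that turn on genes of oxidative phosphorylation and of fatty acid oxidation, while NRF1 and GABPA bind promoters of respiratory chain genes and of Tfam. TFAM is imported into mitochondria, where it packages mitochondrial DNA and starts its transcription. This network is known for its rise in heart muscle after birth, when CMs turn from glucose to fatty acids as fuel.

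The table holds counts for 5 libraries, since the column headed OE1 holds gene lengths. SRF-OE replicates 2 and 3 were therefore compared with GFP replicates 1, 2 and 3, at 14137433 to 23159631 counts per library. Levels in a library are given in CPM, the count of a gene relative to all counts of its library, scaled by edgeR's TMM factors. Srf was at 360 and 748 CPM in SRF-OE, at 67.3 and 85.1 CPM in GFP2 and GFP3, and at 338 CPM in the library labelled GFP1. That library thus stands with the SRF-OE libraries by its Srf level and goes against its label, although it was kept in its labelled group, and each member is given with it and without it. Names of libraries are those of the table's header, in which the name Chr stands over gene symbols and OE1 over lengths. If the names stood 1 column off, the groups, their n and every fold change would differ from those given, and this was not tested. The 10 cardiomyocyte markers, among them Myh6, Tnnt2 and Actn2, were detected in every library, and they summed to 102428 and 90451 CPM in SRF-OE and to 105852, 138249 and 157604 CPM in GFP1, GFP2 and GFP3. All 10 of them lay below 0 in log2 fold change. The 10 endothelial markers summed to 1144 and 464 CPM in SRF-OE and to 972, 461 and 427 CPM in GFP, all 10 above 0, and the 10 fibroblast markers to 926 and 462 CPM and to 500, 393 and 334 CPM, also all 10 above 0. The 10 smooth muscle and pericyte markers, among them Acta2, Tagln and Des, ranged from 3170 to 5462 CPM in sum, with 9 of 10 above 0. That sum was not traced to such cells. The 10 leukocyte markers ranged from 12.5 to 37.8 CPM in sum, with 6 of the 8 tested above 0. No marker of any list was at 0 in a library. The part of these marker sums in the results was not tested, and fewer cells of a type and less RNA per cell cannot be told apart.

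**Figure D1:**
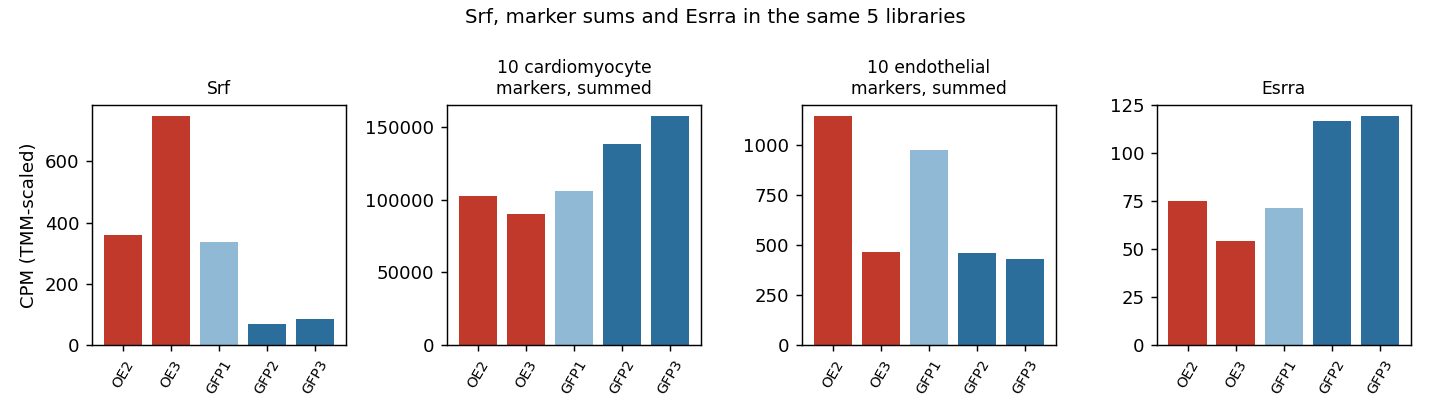
Bars give CPM (vertical axes, starting at 0) of Srf, of the summed cardiomyocyte markers, of the summed endothelial markers and of Esrra in each of the 5 libraries, with SRF-OE in red, the library labelled GFP1 in light blue and GFP2 and GFP3 in dark blue. Srf in GFP1 (338 CPM) is near SRF-OE2 (360 CPM), and Esrra in GFP1 (71.4 CPM) lies between both SRF-OE libraries (75.0 and 54.2 CPM).

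Most of the regulators lay somewhat lower in SRF-OE, led by 2 of the estrogen-related receptors. No member passed edgeR's quasi-likelihood test without the replicate number as a block, in either set of libraries. Scaled to the summed cardiomyocyte markers, 6 members (Ppargc1a, Ppargc1b, Esrrb, Ppara, Gabpa and Tfam) turned above 0, with a median over the members of 0.22. On that scale the median of all genes tested rose as well, to 0.47, and the members' median stayed below it. In the 5 libraries, 8 of 10 members had a log2 fold change below 0 and 2 (Ppard and Nrf1) above 0. Without GFP1, 9 lay below 0 and only Ppard above it. The median log2 fold change of the members was -0.23, beside 0.03 for all 13754 genes tested, and -0.33 without GFP1, beside 0.04 for 13397 genes. At an adjusted p under 0.05 by that test, 0 members were higher and 0 lower in the 5 libraries, where 0% of all genes were called higher and 0% lower. Without GFP1 the counts of members were again 0 and 0, where 1.98% of all genes were called higher and 0.97% lower. Srf itself was not called in the 5 libraries by that test (log2 fold change 1.76, adjusted p = 0.357). It was called without GFP1 (2.87, adjusted p = 0.0442). The 5-library test thus did not call even the gene that was added. At an unadjusted p under 0.05, 1 member (Esrra) was lower in the 5 libraries, against 7.59% of all genes, and 3 (Esrra, Esrrg and Esrrb) were lower without GFP1, against 14% of all genes. DESeq2 without GFP1 called 2 members lower, Esrra and Esrrg, against 6.16% of all genes, and 0 higher, against 6.31%.

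**Figure D2:**
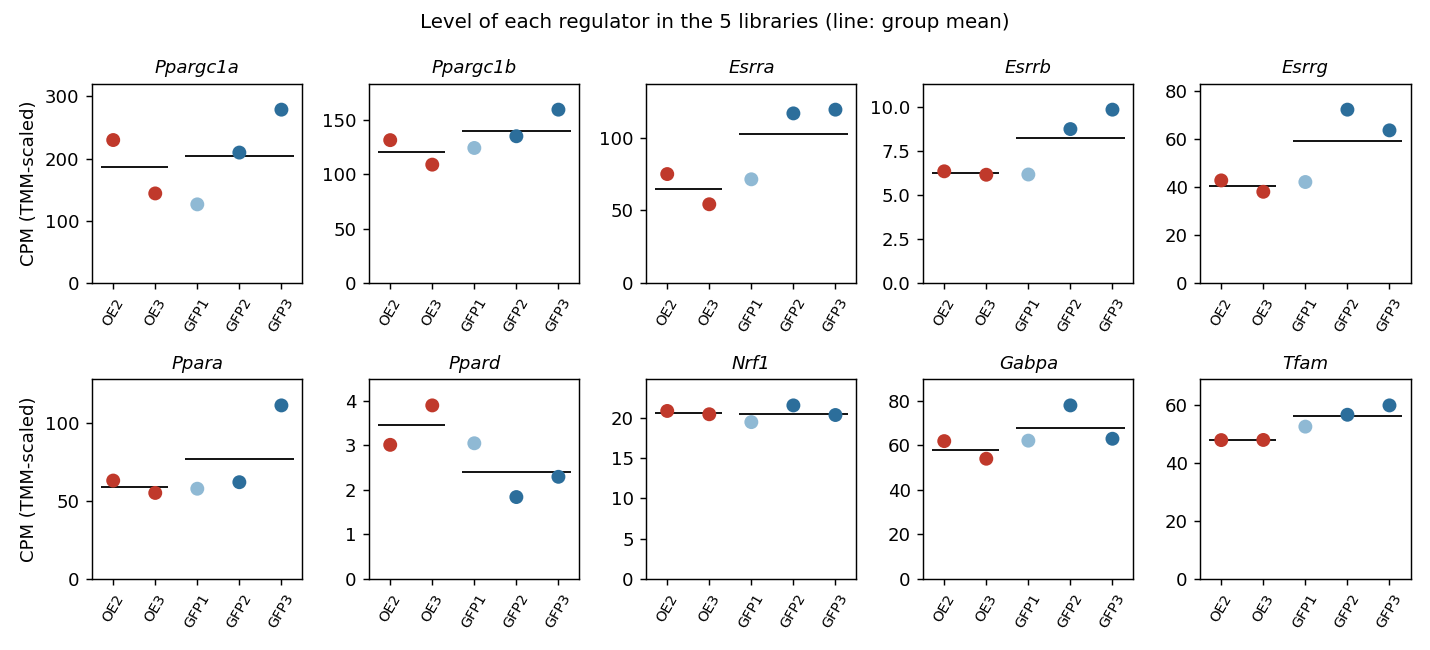
Each panel gives the level of one regulator in CPM (vertical axis, starting at 0) in the 5 libraries, with SRF-OE in red, the library labelled GFP1 in light blue, GFP2 and GFP3 in dark blue and a line at each group's mean. Esrra, Esrrb and Esrrg in GFP1 lie at the level of the SRF-OE libraries and below GFP2 and GFP3, while Nrf1 stays between 19.5 and 21.6 CPM in all 5.

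Levels of the regulators spanned a wide range. Ordered by their mean RPKM (CPM per kilobase of the deposited gene length), a scale for comparing genes, the levels were 38.9 for Esrra, 36.0 for Ppargc1b, 30.5 for Ppargc1a, 13.5 for Tfam, 12.8 for Gabpa, 9.28 for Ppara, 9.26 for Esrrg, 3.85 for Nrf1, 1.62 for Esrrb and 0.874 for Ppard. The order depends on the lengths used. Esrra has a deposited length of 2242 bases and 4387 exonic bases in GENCODE, and Ppara 7528 and 3836, so other lengths would change their places. The order falls into steps, and neighbours within a step were not separated by their spread. Esrra, Ppargc1b and Ppargc1a formed the top step, with overlapping ranges over the 5 libraries of 24.2 to 53.2, 29.7 to 43.5 and 19.5 to 42.9 RPKM. Within it, Esrra lay above Ppargc1b in 2 of 5 libraries, while Ppargc1b lay above Ppargc1a in 5 of 5. Tfam (12.2 to 15.3 RPKM), Gabpa (10.8 to 15.6 RPKM), Ppara (7.32 to 14.8 RPKM) and Esrrg (6.81 to 12.9 RPKM) formed the next step, in which each neighbour overlapped. Nrf1 (3.65 to 4.04 RPKM), Esrrb (1.33 to 2.14 RPKM) and Ppard (0.570 to 1.21 RPKM) each stood apart from its neighbours without overlap.

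**Figure D3:**
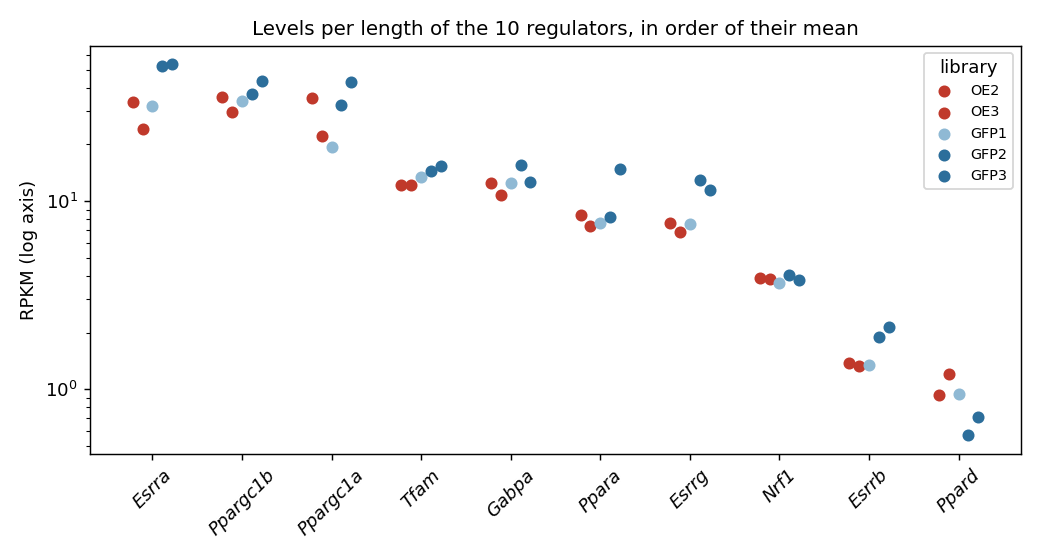
Points give the level of each regulator per gene length in RPKM (log axis) in the 5 libraries, ordered by the mean, with SRF-OE in red, the library labelled GFP1 in light blue and GFP2 and GFP3 in dark blue. Esrra (mean 38.9), Ppargc1b (36.0) and Ppargc1a (30.5) lie on top with overlapping points, and Ppard (0.874) is lowest.

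Neither coactivator passed the cutoff, and both overlapped between the groups in the 5 libraries. Ppargc1a encodes PGC-1α, the coactivator whose level is itself switched by hormones, exercise and fuel supply, and lies on chromosome 5 from 51454250 to 51567726 (GRCm38). Its level was 230 and 144 CPM in SRF-OE2 and SRF-OE3, and 127, 210 and 279 CPM in GFP1, GFP2 and GFP3. Libraries of each group were spread widely and the groups overlapped, with GFP1 lowest and GFP3 highest. The group means were 187 ± 60.7 CPM (SD, n = 2) and 205 ± 76.2 CPM (SD, n = 3). Its log2 fold change was -0.13 (adjusted p = 0.872, standard error 0.35), and -0.38 without GFP1 (adjusted p = 0.368, standard error 0.25). The sign depended on single libraries, since it was 0.16 without SRF-OE3 and 0.15 without GFP3. Ppargc1b, for the close relative PGC-1β, was steadier, at 131 and 109 CPM in SRF-OE and 124, 135 and 159 CPM in GFP. Only GFP1 fell within the SRF-OE values. The means were 120 ± 15.9 CPM (SD, n = 2) and 139 ± 18.0 CPM (SD, n = 3), a log2 fold change of -0.22 (adjusted p = 0.527, standard error 0.16) and of -0.29 without GFP1 (adjusted p = 0.264, standard error 0.15). Set against each other in RPKM, Ppargc1a was 0.987 and 0.747 of Ppargc1b in SRF-OE and 0.575, 0.877 and 0.986 of it in GFP, again with overlap between the groups.

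The ERRs lay lower in SRF-OE by the widest margin among the regulators. Esrra encodes ERRα, the main nuclear receptor partner of PGC-1 on genes of oxidative phosphorylation, and lies on chromosome 19 from 6910977 to 6921813. Its level was 75.0 and 54.2 CPM in SRF-OE2 and SRF-OE3, and 71.4, 117 and 119 CPM in GFP1, GFP2 and GFP3. GFP2 and GFP3 nearly coincided and stood well above the other three libraries, and GFP1 lay between the SRF-OE libraries, so the labelled groups overlapped. The SRF-OE mean was 64.6 ± 14.7 CPM (SD, n = 2) and the GFP mean 102 ± 26.9 CPM (SD, n = 3), or 118 ± 1.82 CPM (SD, n = 2) without GFP1. This gave a log2 fold change of -0.67 (adjusted p = 0.357, standard error 0.26) and of -0.86 without GFP1 (adjusted p = 0.0565, standard error 0.18), above the cutoff of 0.05. In plain terms the SRF-OE mean was 0.630 times that of GFP, and 0.549 times without GFP1.

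Esrrg encodes ERRγ, a relative of ERRα that acts on an overlapping set of genes in heart muscle, and lies on chromosome 1 from 187608791 to 188214885. It followed Esrra closely, at 42.7 and 38.0 CPM in SRF-OE and 42.1, 72.2 and 63.5 CPM in GFP. GFP1 again lay within the SRF-OE values and GFP2 and GFP3 above them. The means were 40.4 ± 3.35 CPM (SD, n = 2) and 59.3 ± 15.5 CPM (SD, n = 3), or 67.9 ± 6.09 CPM (SD, n = 2) without GFP1. Its log2 fold change was -0.55 (adjusted p = 0.362, standard error 0.24), and -0.74 without GFP1 (adjusted p = 0.0534, standard error 0.14). DESeq2 without GFP1 gave -0.88 for Esrra (adjusted p = 0.00111, standard error 0.21) and -0.76 for Esrrg (adjusted p = 0.00593, standard error 0.21). Without GFP1, both genes were thus called by DESeq2 and not by edgeR's test without the replicate number as a block. In the 5 libraries DESeq2 gave neither of them an adjusted p. Esrrb (chromosome 12, 86361117 to 86521628), for ERRβ, which is best known in early embryos and stem cells, was far lower, with 110 to 191 counts in a library. Its level was 6.36 and 6.16 CPM in SRF-OE and 6.18, 8.76 and 9.87 CPM in GFP, with GFP1 once more between the SRF-OE libraries. The log2 fold change was -0.40 (adjusted p = 0.486, standard error 0.26), and -0.56 without GFP1 (adjusted p = 0.158, standard error 0.22).

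The 3 receptors kept their order to each other in every library. In RPKM, Esrra was 4.37 and 3.55 times Esrrg in SRF-OE and 4.22, 4.03 and 4.67 times in GFP. Esrrg was 5.56 and 5.10 times Esrrb in SRF-OE and 5.64, 6.82 and 5.33 times in GFP. Esrra was 24.3 and 18.1 times Esrrb in SRF-OE and 23.8, 27.5 and 24.9 times in GFP. All 3 ratios overlapped between the groups as labelled, and without GFP1 that of Esrra to Esrrb lay lower in SRF-OE without overlap. The ratios were not tested. By the root mean square difference of their centred log2 CPM over the 5 libraries, a measure that is 0 for identical patterns, Esrra and Esrrg were 0.132 apart and Esrrb and Esrrg 0.149. The libraries with low Esrra and Esrrg were also those with low sums of cardiomyocyte markers. Per 100000 CPM of those markers, Esrra was at 73.2 and 59.9 CPM in SRF-OE and 67.4, 84.4 and 75.7 CPM in GFP, and Esrrg at 41.7 and 42.0 CPM and 39.7, 52.2 and 40.3 CPM. On that scale GFP1 was still below one SRF-OE library for Esrra, Esrra kept GFP2 and GFP3 above SRF-OE, and Esrrg overlapped also without GFP1. The marker list consists largely of sarcomere genes, some of them known targets of SRF, and it is not a neutral yardstick here.

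**Figure D4:**
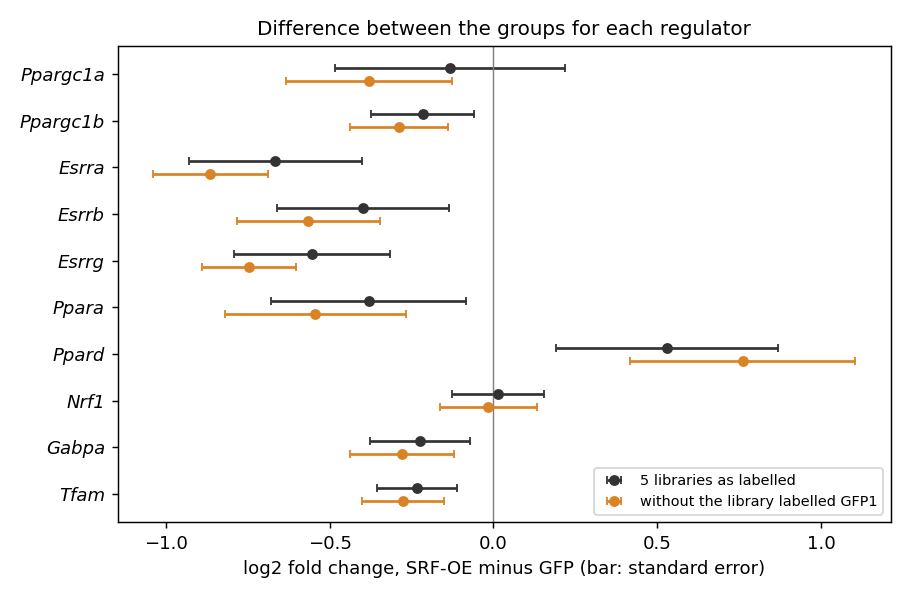
Points give the log2 fold change of each regulator, SRF-OE minus GFP (horizontal axis), with bars of 1 standard error from edgeR's fit, in black for the 5 libraries as labelled and in orange without the library labelled GFP1. Esrra (-0.67 and -0.86) and Esrrg (-0.55 and -0.74) lie farthest to the left, Ppard (0.53 and 0.76) lies to the right, and Nrf1 sits at 0.

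The pair of PPARs pointed in opposite directions, neither of them past the cutoff. Ppara, for the receptor that fatty acids switch on and that drives their oxidation in the heart, lies on chromosome 15 from 85734983 to 85802819. Its level was 63.1 and 55.1 CPM in SRF-OE and 57.8, 62.0 and 111 CPM in GFP. A single library, GFP3, stood apart, and the other four spanned 55.1 to 63.1 CPM. Its log2 fold change was -0.38 (adjusted p = 0.555, standard error 0.30), and -0.54 without GFP1 (adjusted p = 0.253, standard error 0.28), but -0.020 without GFP3. Ppard (chromosome 17, 28232700 to 28301474), for the more widely expressed PPARδ, was the lowest of the regulators, with 29 to 89 counts in a library. It was at 3.01 and 3.89 CPM in SRF-OE and 3.04, 1.83 and 2.29 CPM in GFP. Both SRF-OE libraries lay above GFP2 and GFP3, with GFP1 between them. The log2 fold change was 0.53 (adjusted p = 0.476, standard error 0.34), and 0.76 without GFP1 (adjusted p = 0.211, standard error 0.34), the one member above 0 in both fits. In RPKM, Ppara was 8.97 and 6.06 times Ppard in SRF-OE and 8.13, 14.4 and 20.8 times in GFP, so that the ratio was lower in both SRF-OE libraries than in GFP2 and GFP3 and GFP1 fell between the SRF-OE values. This ratio was read after its values were seen and was not tested.

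Among the nuclear factors, Tfam and Gabpa lay slightly lower in SRF-OE and Nrf1 was nearly level. Nrf1 (chromosome 6, 30047988 to 30153458) encodes nuclear respiratory factor 1, which binds promoters of respiratory chain and mitochondrial import genes, and must not be confused with Nfe2l1, which shares its short name. Its level was 20.9 and 20.5 CPM in SRF-OE and 19.5, 21.6 and 20.4 CPM in GFP. The 5 values had a coefficient of variation of 3.69%, and the highest was 1.11 times the lowest. Its log2 fold change was 0.01 (adjusted p = 0.969, standard error 0.14), and -0.02 without GFP1 (adjusted p = 0.957, standard error 0.15). Gabpa (chromosome 16, 84834925 to 84863779), for the DNA-binding subunit of GABP (also called NRF2), was at 61.9 and 53.9 CPM in SRF-OE and 62.1, 77.9 and 62.9 CPM in GFP. The groups did not overlap, but SRF-OE2 and GFP1 were almost level. Its log2 fold change was -0.22 (adjusted p = 0.50, standard error 0.15), and -0.28 without GFP1 (adjusted p = 0.301, standard error 0.16). Counting was not stated to use strand, and Gabpa shares 397 exonic bases with Atp5j on the opposite strand, so reads of that stretch cannot be assigned to one of them. Esrra likewise shares 73 exonic bases with Trmt112 on the opposite strand.

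Tfam (chromosome 10, 71225464 to 71238280), for the factor that packages and transcribes mitochondrial DNA, was almost identical in both SRF-OE libraries. It was at 47.9 CPM in both SRF-OE libraries and at 52.5, 56.6 and 59.8 CPM in GFP. All 3 GFP libraries, GFP1 included, lay above both SRF-OE libraries. The means were 47.9 ± 0.0340 CPM (SD, n = 2) and 56.3 ± 3.67 CPM (SD, n = 3), a log2 fold change of -0.23 (adjusted p = 0.411, standard error 0.12), and of -0.28 without GFP1 (adjusted p = 0.215, standard error 0.13). In all, 2 members (Gabpa and Tfam) lay lower in SRF-OE without overlap in the 5 libraries, against 17.3% of all genes, and 0 higher, against 16.1%. Without GFP1, 6 members (Ppargc1b, Esrra, Esrrb, Esrrg, Gabpa and Tfam) lay lower without overlap, against 30.2% of all genes, and 1 (Ppard) higher, against 30.8%. Per 100000 CPM of cardiomyocyte markers Tfam was at 46.7 and 53.0 CPM in SRF-OE and 49.6, 40.9 and 38.0 CPM in GFP, so its direction turned on that scale. With scaling to those markers the median log2 fold change of all genes tested also rose, from 0.03 to 0.47 in the 5 libraries.

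Some of these regulators are known to act on each other's promoters, and the proximal promoters that hold a motif bound by GABPA or NRF1 are shown here for that reason. RefSeq's windows (GRCm38.p6) run from 250 bases before to 50 bases after a gene's start, and 14 windows of 9 members were at hand. These starts are RefSeq's and can differ from the GENCODE gene ends given above. The Ppara window, for example, lies wholly inside the gene's GENCODE positions. Letters were searched on both strands. The ETS core CCGGAAG, bound by GABPA, was in 2 of 14 windows, those of Tfam and of Gabpa itself, and in 8.86% of all 32851 windows. The letters GCGCATGC, from the NRF1 motif, were in 2 of 14, those of Esrra and Ppara, and in 2.71% of all windows. The extended ERR site AAGGTCA was in 0 of 14 (4.72% of all windows), and the CArG box, the motif of SRF, in 0 of 14 (1.63%). Each window below is 5′ to 3′ on the gene's own strand, with the motif in capitals, which begins at -47 from the start in Tfam, at -93 in Gabpa (reverse strand), at -34 in Esrra (reverse strand), and at -31 and, overlapping on the reverse strand, at -29 in Ppara. Tfam is chr10:71237995-71238294 (minus strand), Gabpa chr16:84834874-84835173 (plus strand), Esrra chr19:6921759-6922058 (minus strand) and Ppara chr15:85735526-85735825 (plus strand).
Tfam: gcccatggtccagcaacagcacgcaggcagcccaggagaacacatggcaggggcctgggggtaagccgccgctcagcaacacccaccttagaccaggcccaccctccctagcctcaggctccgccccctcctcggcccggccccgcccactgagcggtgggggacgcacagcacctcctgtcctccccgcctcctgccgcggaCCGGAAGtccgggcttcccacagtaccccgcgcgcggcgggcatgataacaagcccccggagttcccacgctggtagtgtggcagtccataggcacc
Gabpa: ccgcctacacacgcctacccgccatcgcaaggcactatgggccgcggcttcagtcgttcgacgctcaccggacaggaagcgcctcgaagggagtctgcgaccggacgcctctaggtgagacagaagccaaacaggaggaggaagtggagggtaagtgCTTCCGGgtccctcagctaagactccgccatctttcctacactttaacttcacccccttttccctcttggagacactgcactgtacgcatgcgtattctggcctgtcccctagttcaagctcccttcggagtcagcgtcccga
Esrra: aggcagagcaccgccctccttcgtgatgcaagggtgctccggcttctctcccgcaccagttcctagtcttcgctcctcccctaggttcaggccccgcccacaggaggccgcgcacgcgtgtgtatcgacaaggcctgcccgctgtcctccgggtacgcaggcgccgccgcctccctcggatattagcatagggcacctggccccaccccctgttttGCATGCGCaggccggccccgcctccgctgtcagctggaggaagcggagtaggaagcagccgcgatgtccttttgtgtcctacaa
Ppara: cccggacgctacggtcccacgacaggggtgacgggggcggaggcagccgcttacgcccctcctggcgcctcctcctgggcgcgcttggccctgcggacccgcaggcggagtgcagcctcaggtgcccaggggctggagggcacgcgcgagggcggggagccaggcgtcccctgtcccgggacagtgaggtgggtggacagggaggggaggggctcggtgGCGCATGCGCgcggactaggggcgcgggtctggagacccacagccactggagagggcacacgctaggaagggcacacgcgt
These matches describe the letters in the windows and do not show binding. Beside them stand the levels already given, with Nrf1 nearly even over the libraries, Gabpa slightly lower in SRF-OE, and Tfam lower in both SRF-OE libraries than in any GFP library. Esrra and Ppara, which hold the NRF1 letters, had log2 fold changes of -0.67 and -0.38 in the 5 libraries. A link between a match and a level was not tested.

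Patterns over the libraries were also compared with those of all genes. The 3 genes of at least 10 CPM whose centred log2 CPM came closest to that of Ppargc1a, among 8522 genes compared over the 5 libraries, were 4930481A15Rik (root mean square difference 0.080), Notch2 (0.097) and Smad6 (0.11). Smad6, for example, was at 21.9 and 15.0 CPM in SRF-OE and 12.4, 18.3 and 23.6 CPM in GFP, with the same low SRF-OE3 and GFP1. The closest to Tfam were Naa10 (0.0075), Mrpl9 (0.010) and Mrps9 (0.013), of which Mrpl9 and Mrps9 encode proteins of the mitochondrial ribosome. Mrpl9 was at 76.8 and 75.8 CPM in SRF-OE and 84.6, 90.0 and 96.1 CPM in GFP. Among the members, the smallest differences were those of Ppargc1b and Tfam (0.106) and of Nrf1 and Tfam (0.131). The measure is not scaled for how much a gene varies, so genes that vary little score as close. Nrf1 and Tfam had coefficients of variation of 3.69% and 10.0%, and only Tfam lay lower in SRF-OE without overlap. These likenesses rest on 5 libraries and are descriptions.

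Of the 119 other genes of the network, taken in 5 lists, 117 were tested. In the 5 libraries, 25 had a log2 fold change above 0 and 92 below, with a median of -0.27 beside 0.03 for all genes tested, and 0 were called higher and 0 lower. At an unadjusted p under 0.05, 2 were higher and 29 lower, where 6.35% and 7.59% of all genes were. Without GFP1, 27 lay above 0 and 90 below, with a median of -0.32, and 0 were called higher and 3 lower, where 0.97% of all genes were called lower. The regulators' median of -0.23 thus lay between that of all genes and those of the 2 lists of genes under them, which had medians of -0.48 and -0.43. Lists were described by counts and medians alone.

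Genes under the regulators mostly lay lower with TMM scaling, as all 10 cardiomyocyte markers did. Scaled to the sum of those markers without GFP1, 27 of the network genes were called higher and 2 lower, where 43.4% and 0.62% of all genes were. Of the 25 tested fatty acid genes under PPARs, 23 lay below 0 and 2 above, and 10 were lower at an unadjusted p under 0.05, against 7.59% of all genes. Without GFP1 their median was -0.64 and 1 was called lower, against 0.97% of all genes. That gene was Cpt2, for the enzyme that frees long-chain acyl groups from carnitine inside mitochondria, at 347 and 317 CPM in SRF-OE and 427, 563 and 562 CPM in GFP. All GFP libraries lay above SRF-OE, and its log2 fold change of -0.64 (adjusted p = 0.353, standard error 0.17) became -0.75 without GFP1 (adjusted p = 0.0495, standard error 0.13). Lowest in the list was Ucp3, for a mitochondrial uncoupling protein, at -0.80 (standard error 0.39), and at -1.06 without GFP1 (standard error 0.31). The untested genes of this list, Fgf21 and Cyp4a10, did not pass the filter on low counts.

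Of the 24 genes under ERRs, NRF1 and GABP, 23 lay below 0 and 1 above, and 11 were lower at an unadjusted p under 0.05, again against 7.59%. Without GFP1 their median was -0.49 and 0 were called, where 1.98% of all genes were called higher and 0.97% lower. Lowest was Ckmt2, for the mitochondrial creatine kinase of the sarcomere, at 1660 and 1243 CPM in SRF-OE and 2286, 3066 and 3823 CPM in GFP. Its libraries did not overlap, with a log2 fold change of -1.08 (adjusted p = 0.353, standard error 0.28) and of -1.24 without GFP1 (adjusted p = 0.0503, standard error 0.23). Highest was Surf1, for an assembly factor of cytochrome c oxidase, at 0.16 (standard error 0.12), and at 0.17 without GFP1 (standard error 0.13). Ckmt2, like Esrra, was lowest in SRF-OE3, but GFP1 lay above both SRF-OE libraries for Ckmt2 and between them for Esrra.

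**Figure D5:**
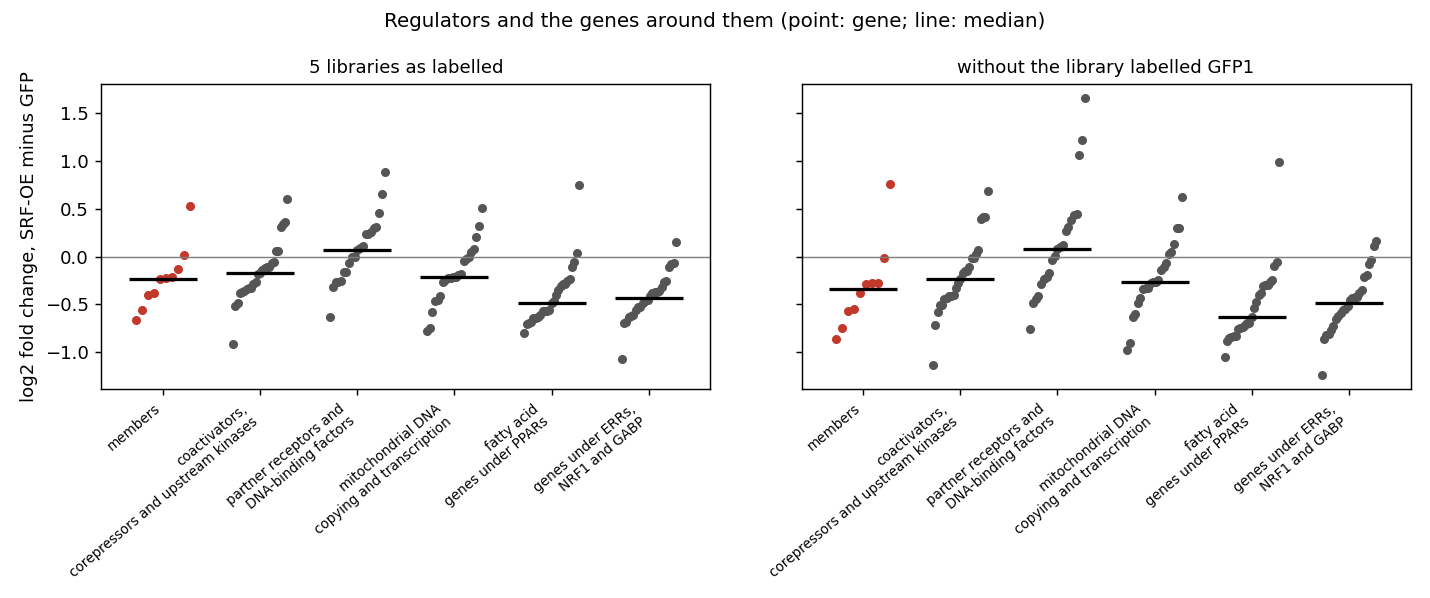
Points give the log2 fold change of each gene tested, SRF-OE minus GFP (vertical axis), for the 10 regulators in red and the 5 lists around them in grey, with a line at each median, in the 5 libraries (left) and without the library labelled GFP1 (right). The medians of the genes under PPARs (-0.48 and -0.64) and under ERRs, NRF1 and GABP (-0.43 and -0.49) lie below that of the regulators (-0.23 and -0.33), and partner receptors lie about 0.

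Closest to the members in role, the coactivators, corepressors and upstream kinases held 25 genes, of which 19 lay below 0 and 6 above, with a median of -0.17 and of -0.23 without GFP1. Perm1 (2310042D19Rik in the table), for a muscle protein induced by PGC-1 and ERRs, was lowest. It was the 1 gene called without GFP1, where 0.97% of all genes were called lower. It was at 277 and 203 CPM in SRF-OE and 305, 488 and 567 CPM in GFP, without overlap. The log2 fold change of -0.92 (adjusted p = 0.353, standard error 0.29) became -1.13 (adjusted p = 0.0486, standard error 0.19). Prkag2, for a regulatory subunit of AMP-activated kinase, which acts on PGC-1α, was highest at 0.60 (standard error 0.19), or 0.69 without GFP1 (standard error 0.20), with 76.2 and 106 CPM in SRF-OE and 67.1, 62.2 and 51.3 CPM in GFP. Pprc1, for the third PGC-1 family member, was at 23.9 and 34.1 CPM in SRF-OE and 26.4, 25.9 and 31.3 CPM in GFP, and was named for its kinship with the members after its values were seen.

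The 22 genes of mitochondrial DNA copying and transcription, which work beside TFAM, had 17 below 0 and 5 above, with a median of -0.21 and of -0.27 without GFP1. That median was close to Tfam's own log2 fold change of -0.23. Lrpprc, for a protein that keeps mitochondrial messenger RNA stable, was the 1 gene called without GFP1, against 0.97% of all genes called lower. It was at 223 and 202 CPM in SRF-OE and 271, 367 and 430 CPM in GFP, without overlap, and its log2 fold change of -0.74 (adjusted p = 0.353, standard error 0.21) became -0.90 (adjusted p = 0.0473, standard error 0.14). Mterf2 (Mterfd3 in the table), of the family of mitochondrial transcription terminators, was lowest at -0.78 (standard error 0.28), and -0.98 without GFP1 (standard error 0.20). Top1mt, the mitochondrial topoisomerase, was highest at 0.51 (standard error 0.21), and 0.62 without GFP1 (standard error 0.23).

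Among the 21 partner receptors and DNA-binding factors, 11 lay above 0 and 10 below, with a median of 0.07 and of 0.08 without GFP1. In either fit 0 were called, where without GFP1 1.98% of all genes were called higher and 0.97% lower. Lowest was Rxrg, for a retinoid X receptor with which PPARs pair to bind DNA. It was at 66.4 and 56.4 CPM in SRF-OE and 77.5, 98.9 and 109 CPM in GFP, without overlap, with a log2 fold change of -0.63 (adjusted p = 0.353, standard error 0.18) and of -0.75 without GFP1 (adjusted p = 0.0503, standard error 0.14). Highest was Nr2f1, at 0.89 (standard error 0.66) and at 1.67 without GFP1 (standard error 0.62, adjusted p = 0.150), which stayed under 1 CPM in every library. The 3 genes called without GFP1 in these lists, Perm1, Lrpprc and Cpt2, lay lower in both SRF-OE libraries than in GFP1 as well, whereas the ERRs did not.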

How the data were processed

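RNA-seq libraries were made from polyA RNA of GFP+ CMs with SMART-Seq v4 and Nextera XT, kits that do not mark strand. Per the labels and the study's methods, reads were aligned by the authors with STAR (2.5.3a) on mm10 and assigned to genes with FeatureCounts (Subread 1.5.2), and raw counts were deposited in a single table. The column headed OE1 holds gene lengths and served only for RPKM, so the tests planned for 6 libraries used 5. Settings for strand and multiply mapped reads are not given in the sources used here. Total counts were 15927653 (SRF-OE2), 21298558 (SRF-OE3), 20785271 (GFP1), 23159631 (GFP2) and 14137433 (GFP3).

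Groups were compared by the two-sided quasi-likelihood test of edgeR 4.0.16 (glmQLFit, glmQLFTest, R 4.3.3) after filterByExpr and TMM scaling, and p-values were adjusted over all genes tested after Benjamini and Hochberg, with 0.05 as the cutoff. Standard errors were obtained as |log2 fold change|/√F. CPM used TMM factors of the 5 libraries. The fits were tested on simulated data. The alternatives were DESeq2 1.42.0, other scalings, no filter, the replicate number as a block and leaving out each library. Positions are from GENCODE (GRCm38) and promoters from RefSeq.

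The members and lists were chosen with earlier results of these data known. All members were described. From each list the highest and lowest log2 fold change and any gene past the cutoff in either fit were named, except 1 item that is not reported here. Patterns used log2 of CPM plus 0.5. The knockout experiments were not analysed here.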

Additional observations from a re-analysis of the deposited data

How the results depend on the processing

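The direction of 8 members, all but Ppargc1a and Nrf1, held in 12 of 12 alternative settings, and only Esrra and Esrrg passed the cutoff in any of them, in 3 each, with log2 fold changes between -0.92 and -0.46 and between -0.76 and -0.39. With the replicate block, 2 members (Esrra -0.89, adjusted p = 0.033, and Esrrg -0.75, adjusted p = 0.033) and 14 network genes were lower, where 3.14% of all genes were, and with the replicate block without GFP1 2 members and 13 network genes were lower, where 2.93% were. GFP1 is the only library numbered 1 with counts, so under the block it takes no part in the group difference. Both block fits thus compare nearly the same values, and all 3 settings with calls rest on SRF-OE2, SRF-OE3, GFP2 and GFP3. Same-numbered libraries correlated in their deviations at 0.396 for number 2 and -0.074 for number 3 in the 5 libraries. Without GFP1 the value was 0.217, equal for both numbers by construction, since 2 libraries of a group deviate equally in opposite directions. In the 5 libraries the GFP deviations were taken from a mean that includes GFP1. These values therefore do not settle whether the numbers are pairs. The numbers were not taken as pairs in the main test. DESeq2 gave 19 network genes lower in the 5 libraries, of 48 with an adjusted p, where 19.7% of the 1079 genes with one were lower, and only 1 of 10 members had one. Without GFP1 it gave 2 members and 33 network genes lower, where 6.16% of all genes were, and 1 network gene higher, where 6.31% were. Leaving out each library gave 0 to 3 network genes lower, the 3 without GFP1 and 0 without any other, and moved Ppargc1a between -0.51 and 0.16 and Nrf1 between -0.016 and 0.053. Nrf1 was at -0.020 with the replicate block, at -0.015 with it and without GFP1, and at -0.025 with DESeq2 without GFP1. Leaving out an SRF-OE library leaves 1, which is then assumed to vary like the others. Scaling to the summed cardiomyocyte markers, added after the data were seen, moved the median of all genes to 0.47, and to 0.64 without GFP1, where 43.4% of all genes were called higher. The members' median became 0.22, and 0.27 without GFP1, where 1 member (Ppard, 1.38, adjusted p = 0.0124) and 27 network genes were higher and 2 lower. On that scale the log2 fold change turned to 0.36 for Ppargc1a, 0.24 for Ppargc1b, 0.084 for Esrrb, 0.11 for Ppara, 0.22 for Gabpa and 0.22 for Tfam, and without GFP1 to 0.22, 0.32, 0.048, 0.087, 0.32 and 0.34, while Esrra (-0.19 and -0.27) and Esrrg (-0.075 and -0.15) stayed below 0. The cause of these changes was not tested. Depth limits Ppard most, with 29 to 89 counts in a library.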

Other observations

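Subunits of AMP-activated kinase, an energy sensor that acts on PGC-1α, differed among themselves in direction, and were picked after their values were seen. Prkag2 lay above 0, while Prkag1, for another regulatory subunit, was at 93.9 and 82.2 CPM in SRF-OE and 90.3, 131 and 121 CPM in GFP, a log2 fold change of -0.37 (adjusted p = 0.396, standard error 0.18) and of -0.51 without GFP1 (adjusted p = 0.0707). For the scaffold subunits, Prkab1 was at 57.1 and 41.6 CPM in SRF-OE and 49.5, 86.1 and 76.3 CPM in GFP, at -0.52 (standard error 0.26) and -0.71 without GFP1 (standard error 0.18), and Prkab2 at 51.2 and 96.0 CPM and 65.5, 60.7 and 51.4 CPM, at 0.31 (standard error 0.27) and 0.40 without GFP1 (standard error 0.30). The catalytic subunits Prkaa1 and Prkaa2 were at -0.07 (standard error 0.16) and -0.14 (standard error 0.12). None of these 6 passed the cutoff in the 5 libraries or without GFP1. Prkag3, the remaining regulatory subunit, was at 10.5 and 16.9 CPM in SRF-OE and 12.5, 11.3 and 13.2 CPM in GFP, a log2 fold change of 0.15 (adjusted p = 0.776).

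Pparg, the PPAR of fat and endothelial cells, was at 6.88 and 4.90 CPM in SRF-OE and 6.04, 2.25 and 2.84 CPM in GFP, highest in the libraries with the highest sums of endothelial markers, SRF-OE2 and GFP1. Its log2 fold change was 0.66 (adjusted p = 0.509, standard error 0.46), and 1.22 without GFP1 (adjusted p = 0.081, standard error 0.33). The part of those cells in its level was not tested.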
